A study of Mus musculus with 9 samples.

Results

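The genes described here were 10 members of the S100 family (S100a1, S100a4, S100a6, S100a8, S100a9, S100a10, S100a11, S100a13, S100a14 and S100a16), taken by gene symbol from a table of 38203 genes. Each symbol occurred once in the table. All 10 passed the filter on low values, as did 16897 genes in total. Their RNA was measured by RNA-seq in epidermis, from the basal keratinocyte layer to the cornified layer, of E18.5 mouse embryos with or without the Esrp splicing factors. Esrp1 and Esrp2 are epithelial RNA-binding proteins that set the splicing of many exons.

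There were 9 libraries of 4 genotypes. WT (n = 2) was labelled as wild type for both genes, KO (n = 3) lacked Esrp1 with Esrp2 intact, KH (n = 2) lacked Esrp1 and carried 1 null Esrp2 allele, and DKO (n = 2) lacked both. All were on a mixed C57BL6/129Sv background crossed back towards C57BL6. The alleles were germline, so every tissue of the embryo, and not the epidermis alone, lacked the genes. The library protocol in the labels gives the Esrp1+/+ controls as Esrp2-/-, which differs from their sample labels. Esrp2 stood at 118 and 136 FPKM in the WT libraries and at 0.0843 and 0.0463 FPKM in the DKO libraries, as the sample labels have it. In KO it was at 88.1, 88.4 and 131 FPKM and in KH at 38.6 and 89.5 FPKM, so KH replicate 2, labelled as carrying a null allele, lay within the KO range. Esrp1, whose null allele lacks only some exons, stood at 119 and 142 FPKM in WT and between 18.2 and 55.1 FPKM in the 7 libraries without Esrp1, highest in KH replicate 2.

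S100 proteins are small calcium sensors that carry paired EF-hand motifs and mostly work as dimers. Binding of calcium opens a surface through which they hold partner proteins, and several are also released from cells, where they act on receptors such as RAGE and TLR4. Most S100 genes lie in a cluster at the epidermal differentiation complex, and S100A8 and S100A9 are widely known as alarmins that keratinocytes make in wounded, inflamed or hyperproliferative skin.

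Values are FPKM, fragments per kilobase of transcript scaled to the mapped fragments of the library, so levels are per length. Where they are set side by side between genes, the comparison rests on the length the authors used for each gene. Libraries also differed in the weight of short transcripts, as given below. Between libraries they rest on the scaling the authors applied. Tests used limma on log2(FPKM + 1) with the 9 libraries in 1 fit, two-sided, with Benjamini-Hochberg adjustment over all 16897 genes. A difference counted as called where its adjusted p was under 0.05 and the genotype averages differed over 2-fold. Log2 fold changes below are on the log2(FPKM + 1) scale, which understates the change of genes near 0. The table carries no read counts, so the number of reads behind a value is not given. The study reports totals of mapped reads, with higher numbers for the KO samples, and these were not used here. Summed over all genes, FPKM ranged from 713318 to 1130713 per library, with 11851 to 12228 genes at 1 FPKM or more. Xist and 4 Y-linked genes divided the libraries by sex. WT replicate 1 and all KH and DKO libraries were male, and WT replicate 2 and all 3 KO libraries were female, so DKO and KO differed in sex as well as in genotype.

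The 10 genes spanned 4 orders of magnitude in level. In WT, S100a11 stood highest, at 1800 and 1939 FPKM, followed by S100a14 (1094 to 1294), S100a16 (665 to 729), S100a10 (347 to 355) and S100a6 (18.1 to 23.2). Below them were S100a4 (5.75 to 10.3), S100a13 (4.87 to 6.86), S100a9 (2.24 to 4.21), S100a1 (2.27 to 3.57) and S100a8 (0.178 to 1.3). Neighbours in this order did not overlap between the WT libraries, except S100a4 with S100a13 and S100a9 with S100a1. The order of the first 6 was the same by mean in all 4 genotypes. In DKO, S100a9 and S100a8 stood above S100a13 and S100a1, whereas in WT both were below S100a13 by mean and S100a8 was also below S100a1.

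The members' share of the measured RNA in both DKO libraries exceeded that of the 7 others with S100a11 counted, and not without it. Their FPKM summed to 0.472% and 0.47% of all FPKM in the WT libraries. The shares were 0.564%, 0.548% and 0.498% for the KO libraries, 0.477% and 0.482% for KH and 0.692% and 0.69% for DKO. Both DKO libraries thus lay above all 7 others. The shares of the 2 DKO libraries were close although their FPKM sums were 1112137 and 771857. S100a11 alone supplied between 42.6% and 58.9% of the members' sum in a library. Without it the shares were 0.285% and 0.284% in DKO, 0.271% and 0.247% in WT, 0.263%, 0.289% and 0.246% in KO and 0.251% and 0.223% in KH, so KO replicate 2 then lay above both DKO libraries.

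Between DKO and WT, 3 of the 10 members were called, all higher in DKO (S100a8, S100a9 and S100a6), where 0.728% of all genes tested were called (123 genes). Both DKO libraries lay above both WT libraries in 8 of the 10, as they did for 27.8% of all genes. An unadjusted p below 0.05 was reached by the same 8, against 13.8% of all genes. The median log2 fold change of the members was 1.08, beside 0.02 over all genes tested. S100a14 and S100a16, which overlapped between DKO and WT, were the members left out of the 8.

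**Figure D1:**
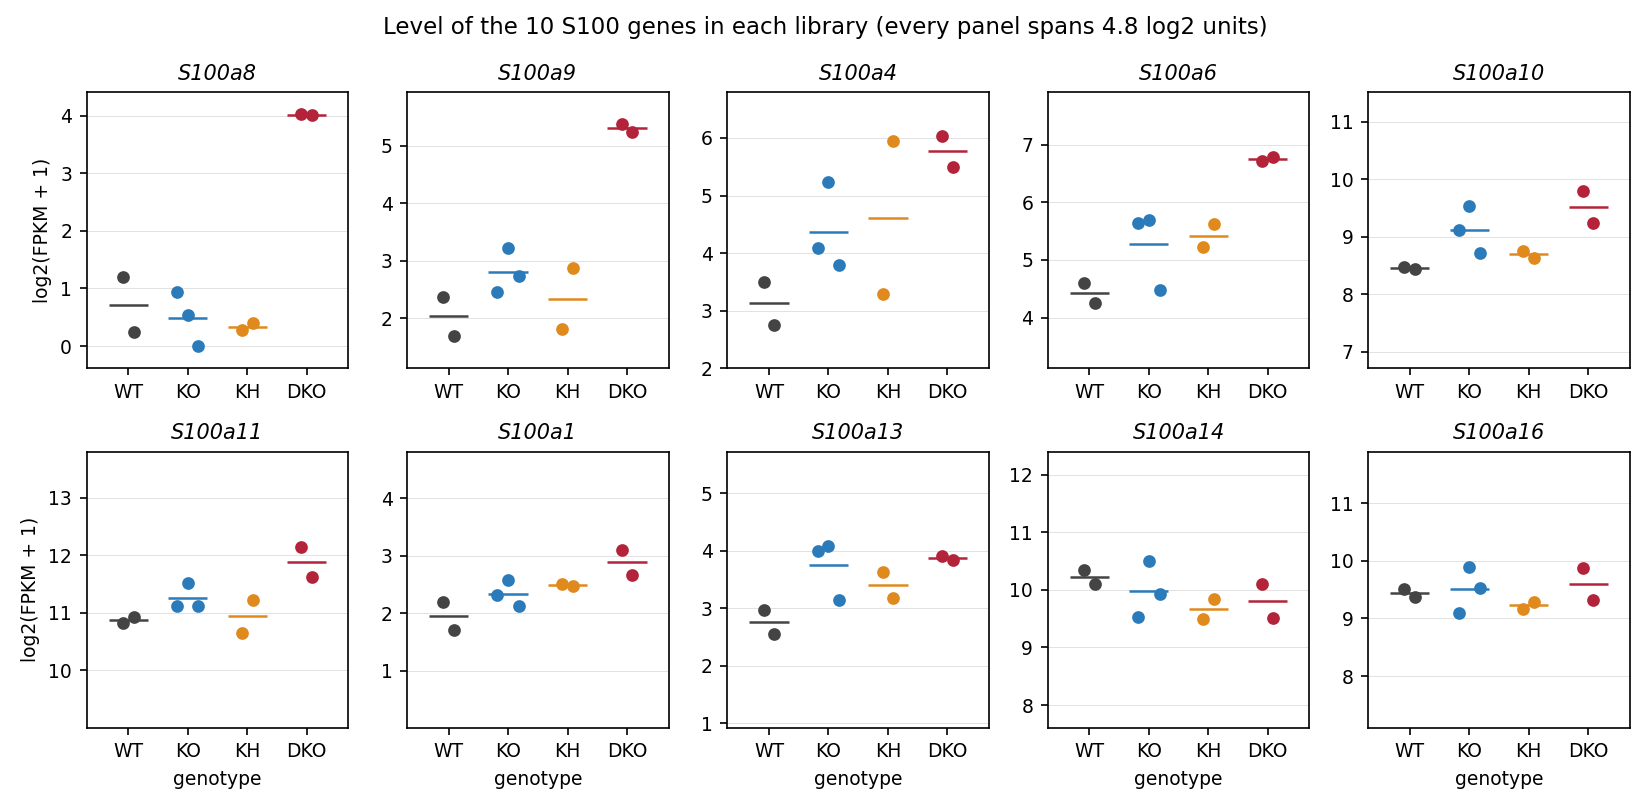
Level of each S100 gene, as log2(FPKM + 1) on the vertical axis, in the 9 libraries by genotype on the horizontal axis. Points are libraries, lines are genotype means, and every panel spans the same number of log2 units. S100a8 and S100a9 of the 2 DKO libraries sit apart from all 7 others, S100a6 less so, whereas S100a14 and S100a16 overlap between DKO and WT.

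S100a8 and S100a9 are the subunits of calprotectin, a heterodimer that binds zinc and manganese and signals through TLR4 and RAGE. S100a8 was at 1.3 and 0.178 FPKM in WT, at 0.905 and 0.459 FPKM and listed at 0 in KO, at 0.207 and 0.317 FPKM in KH, and at 15.3 and 15.2 FPKM in DKO. It was thus near the bottom of the measured range in all 7 libraries that kept at least 1 Esrp allele, and the DKO libraries stood above them without overlap. Its log2 fold change in DKO against WT was 3.31 (SE 0.36, 95% confidence interval 2.50 to 4.12, limma adjusted p = 0.00343).

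S100a9 was measured at 4.21 and 2.24 FPKM in WT, at 4.48, 8.38 and 5.67 FPKM in KO, at 2.53 and 6.33 FPKM in KH, and at 40.5 and 36.9 FPKM in DKO. The DKO mean of 38.7 ± 2.53 FPKM (SD, n = 2) was 12 times the WT mean of 3.23 ± 1.39 FPKM (SD, n = 2). Its log2 fold change was 3.27 (SE 0.40, 95% confidence interval 2.35 to 4.19, limma adjusted p = 0.00788). The lowest KO library of S100a9 lay above both WT libraries, a separation the KH libraries did not show.

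Both subunits were also called in DKO against KO and in DKO against KH. For S100a8 the log2 fold changes were 3.53 (SE 0.33, limma adjusted p = 0.0013) and 3.69 (SE 0.36, limma adjusted p = 0.00223). For S100a9 they were 2.50 (SE 0.37, limma adjusted p = 0.0221) and 2.96 (SE 0.40, limma adjusted p = 0.018). These were the only members called in either comparison, 2 of 10, beside 0.639% of all genes in DKO against KO and 0.426% in DKO against KH. The 3 comparisons with DKO share its 2 libraries.

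Sex differed between DKO and KO, so its part in that comparison and that of genotype cannot be told apart without the WT pair, the only genotype with both. With sex as a term, an alternative added after the values were seen that rests on that pair, the DKO against KO log2 fold change was 2.57 for S100a8 and 1.82 for S100a9, and neither was called (limma adjusted p = 0.385 and 1). In the same fit S100a8 was called in DKO against WT (log2 fold change 2.83, limma adjusted p = 0.0309) and S100a9 was not (2.93, limma adjusted p = 0.111), and both were called in DKO against KH (limma adjusted p = 0.003 for S100a8 and 0.043 for S100a9). Among male libraries only, the log2 fold changes against the single WT library were 2.83 and 2.93 and those against KH 3.69 and 2.96, none called (limma adjusted p = 0.163, 0.536, 0.0515 and 0.343). Each male DKO library stood above each male WT and KH library for both genes.

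The call of S100a8 in DKO against WT was lost without DKO replicate 1, by a narrow margin (limma adjusted p = 0.0506), and with a pseudocount of 0.1 (limma adjusted p = 0.096). That of S100a9 was lost without WT replicate 2, DKO replicate 1 or DKO replicate 2 (limma adjusted p = 0.132, 0.101 and 0.0758) and with the replicate number as a block (limma adjusted p = 0.051). The calls of S100a8 against KO held with each library left out (limma adjusted p = 0.0015 to 0.0307), as did those against KH (0.00257 to 0.0376), and the call against KH was lost with a pseudocount of 0.1 (0.0927).

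Against KO the call of S100a9 was lost without WT replicate 2, KO replicate 1, KO replicate 3, DKO replicate 1 or DKO replicate 2 (limma adjusted p = 0.0591, 0.0704, 0.104, 0.223 and 0.168), with no filter (0.0643) and with the replicate block (0.201). Against KH the call of S100a9 was lost without WT replicate 2, KO replicate 3, KH replicate 1, DKO replicate 1 or DKO replicate 2 (limma adjusted p = 0.0585, 0.0514, 0.0709, 0.193 and 0.121), with no filter (0.0581), with only the 2 genotypes compared (0.11) and with the replicate block (0.102). In DKO against WT, across 11 other settings of pseudocount, filter, scaling and model, the adjusted p of S100a8 lay between 0.00196 and 0.096 and that of S100a9 between 0.00145 and 0.051.

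The ratio of S100a8 to S100a9, which compares the RNA levels of the subunits, was 0.379 and 0.413 in DKO. Elsewhere it ranged from 0, in the KO library where S100a8 was listed at 0, to 0.308 in WT replicate 1. Those ratios rest on S100a8 values of at most 1.3 FPKM, near the floor of the scale. S100a9 was therefore the more abundant transcript in every library.

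Neutrophils carry very high levels of both S100a8 and S100a9, so their markers were read beside them. Of 12 neutrophil and myeloid markers, 10 stayed below 1 FPKM in every library, and of these Ly6g, Mpo and Elane were listed at 0 in all 9. Cxcr2 was at 0.0897 and 0.0321 FPKM in WT and at 0.273 and 0.249 FPKM in DKO. Retnlg, Ngp, Camp, Ltf and Mmp8 were each highest in DKO replicate 2, from 0.052 FPKM (Ltf) to 0.772 FPKM (Retnlg). In DKO replicate 1 Mmp8 was at 0.0172 FPKM, and Retnlg, Ngp, Camp and Ltf were listed at 0. The 12 summed to between 4.92 and 5.93 FPKM in the WT libraries, 4.36 and 6.12 FPKM in KO, 4.82 and 14.9 FPKM in KH and 9.35 and 9.43 FPKM in DKO, so the sums of both DKO libraries lay above those of WT and KO. Of the 5 markers tested, all 5 had a log2 fold change above 0 in DKO against WT, with a median of 0.38, and 4 had both DKO libraries above both WT libraries. None was called, and 1 had an unadjusted p below 0.05. Csf3r, a granulocyte growth factor receptor, was at 0.0679 and 0.0123 FPKM in WT and at 0.521 and 0.214 FPKM in DKO. The highest sum, in KH replicate 2, came mostly from the myeloid genes Lyz2 (9.66 FPKM) and Itgam (4.68 FPKM). In DKO too these genes gave most of the sums, with Lyz2 at 3.82 and 2.67 FPKM and Itgam at 4.8 and 5.09 FPKM. The part of neutrophils and myeloid cells in the S100a8 and S100a9 values was not tested.

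Of 8 measured regulators of S100a8 and S100a9 transcription, 1 was called in DKO against WT. Fosl1, an AP-1 subunit, was at 0.376 and 0.566 FPKM in WT and at 2.6 and 2.99 FPKM in DKO (log2 fold change 1.37, SE 0.19, limma adjusted p = 0.0169). The other 7, among them the C/EBP factors Cebpa, Cebpb and Cebpd, were not called. Of 6 receptors for released S100 proteins, none was called. Ager, which encodes RAGE, stood between 0.69 and 2.07 FPKM over the 9 libraries, and Tlr4 between 0.0706 and 0.335 FPKM, whereas Bsg, a receptor that S100A9 binds, stood between 250 and 390 FPKM.

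The stretches just upstream of the 4 members with the largest log2 fold changes are shown because these genes lie in 1 part of the cluster and had no overlap between the DKO and the WT values. RefSeq windows (GRCm38.p6) were found for 8 of the 10 members, all but S100a10 and S100a14. Each line gives the 250 bases before the transcription start, 5′ to 3′ on the gene's strand, with capitals for matches to any of 4 motifs on either strand. The motif TATAAA stands for the TATA box. The motif of AP-1 factors was written as TGANTCA. For the C/EBP family the letters searched were TTGCNNAA. The last was the CCAAT box. No matches overlapped.
S100a8 (chr3:90668821-90669070, plus strand): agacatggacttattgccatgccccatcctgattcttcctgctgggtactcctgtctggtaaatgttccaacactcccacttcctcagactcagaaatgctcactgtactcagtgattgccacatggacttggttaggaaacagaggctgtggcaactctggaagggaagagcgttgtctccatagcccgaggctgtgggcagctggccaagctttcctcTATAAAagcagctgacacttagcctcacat
S100a9 (chr3:90695722-90695971, minus strand): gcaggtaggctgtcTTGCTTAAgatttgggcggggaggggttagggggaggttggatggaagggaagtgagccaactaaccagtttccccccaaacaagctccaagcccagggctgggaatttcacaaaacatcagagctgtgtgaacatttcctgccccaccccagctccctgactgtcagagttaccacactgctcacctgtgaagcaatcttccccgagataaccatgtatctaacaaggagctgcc
S100a4 (chr3:90603520-90603769, plus strand): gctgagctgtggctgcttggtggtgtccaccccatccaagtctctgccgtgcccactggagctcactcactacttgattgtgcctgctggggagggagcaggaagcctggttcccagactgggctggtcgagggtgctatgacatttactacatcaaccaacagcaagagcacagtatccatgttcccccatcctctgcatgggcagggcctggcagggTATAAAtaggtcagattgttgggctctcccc
S100a6 (chr3:90612644-90612893, plus strand): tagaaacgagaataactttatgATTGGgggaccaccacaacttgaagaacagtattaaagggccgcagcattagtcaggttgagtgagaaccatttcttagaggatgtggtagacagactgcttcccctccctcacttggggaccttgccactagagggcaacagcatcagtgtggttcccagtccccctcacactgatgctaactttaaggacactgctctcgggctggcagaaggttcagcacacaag

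S100a8 and S100a4 each held a TATA box, which began 30 and 31 bases before the start, and S100a9 held 1 C/EBP match, TTGCTTAA, which began 236 bases before it. S100a6 held 1 match to CCAAT, on the opposite strand. The TATA box letters occurred in 12.4% of 32851 mouse promoter windows of this length, those of AP-1 in 6.75%, those of C/EBP in 9.56% and those of the CCAAT box in 33.8%. Among the other members, S100a11 held 2 AP-1 matches, which began 136 and 38 bases before its start, and S100a16 held 1 in the second of its 2 windows, whereas S100a1 and S100a13 held none of the 4 motifs. A match here is a description of letters and not a binding site.

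S100a4 and S100a6 are regulators of the cytoskeleton and of cell growth. S100A4 binds non-muscle myosin and is also made by fibroblasts, macrophages and dendritic cells, and S100A6, or calcyclin, binds the ubiquitin ligase adaptor CacyBP and is found in proliferating epithelium. S100a6 was at 23.2 and 18.1 FPKM in WT, at 48.9, 50.9 and 21.4 FPKM in KO, at 36.3 and 48.3 FPKM in KH and at 105 and 109 FPKM in DKO. The DKO libraries lay above the other 7, and both KH libraries above both WT libraries, while KO replicate 3 lay among the WT values.

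The mean of S100a6 was 5.18 times as high in DKO (107 ± 3.16 FPKM, SD, n = 2) as in WT (20.6 ± 3.59 FPKM, SD, n = 2). Its log2 fold change was 2.33 (SE 0.39, 95% confidence interval 1.44 to 3.21, limma adjusted p = 0.0378). Against KO it was 1.48 (SE 0.35, limma adjusted p = 0.195) and against KH 1.33 (SE 0.39, limma adjusted p = 0.456), neither called. The call against WT was lost when any of 7 libraries was left out, all but KO replicates 1 and 3, with an adjusted p of 0.188 and 0.409 without WT replicates 1 and 2, 0.221 and 0.229 without DKO replicates 1 and 2, 0.0521 without KO replicate 2, and 0.0761 and 0.0587 without KH replicates 1 and 2. With sex as a term the log2 fold change was 2.16 (limma adjusted p = 0.384), and across 11 other settings of pseudocount, filter, scaling and model the adjusted p lay between 0.00409 and 0.095.

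S100a4 varied widely between libraries of 1 genotype. It was at 10.3 and 5.75 FPKM in WT, at 16, 36.8 and 12.8 FPKM in KO, at 8.78 and 60.5 FPKM in KH, and at 64.9 and 44.1 FPKM in DKO. Both DKO libraries exceeded both WT libraries, but KH replicate 2 lay between the DKO values and KH replicate 1 within the WT range, a ratio of 6.89 between the KH libraries. The log2 fold change in DKO against WT was 2.64 (SE 0.79, 95% confidence interval 0.84 to 4.44, limma adjusted p = 0.208), so the difference was not called. It was called when only the 2 genotypes were fitted and with arrayWeights, and the adjusted p lay between 0.0125 and 0.308 across 11 other settings of pseudocount, filter, scaling and model. With the numbers of the column names as a replicate block, added after the values were seen and with 1 residual degree of freedom, its log2 fold change was 0.63 (limma adjusted p = 0.792).

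Markers of other cells moved with S100a4 in some libraries. Antigen presenting and immune cell markers (Ptprc, Cd207, Cd74, H2-Ab1, Cd3e and Csf1r, 6 of 7 found) summed to 14.2 and 6.63 FPKM in WT, to 13.3, 23.4 and 11 FPKM in KO, to 12.4 and 32.2 FPKM in KH and to 32.7 and 14.6 FPKM in DKO. The libraries with the most S100a4, DKO replicate 1 and KH replicate 2, were also those with the highest of these sums, and KO replicate 2 was the highest KO library in both. DKO replicate 2, the third highest in S100a4, had a sum close to that of WT replicate 1. In DKO replicate 1 Cd74 alone gave 16.8 FPKM of the sum, and Ptprc, which marks all leukocytes, was at 1.97 and 1.06 FPKM in WT and at 1.74 and 1.07 FPKM in DKO. Cd207, a marker of Langerhans cells, was below 1 FPKM in every library of these E18.5 embryos, whereas Csf1r stood between 3.28 and 13.3 FPKM. Fibroblast marker sums were lowest in DKO replicate 1 and KH replicate 2, at 44.2 and 50.7 FPKM, of which Dcn alone gave 42.3 and 48.9 FPKM. Of the 6 fibroblast markers tested in DKO against WT, 3 had a log2 fold change above 0 and 3 below. Col1a1 was at 0.167 and 0.112 FPKM in WT and at 0.231 and 0.29 FPKM in DKO. The part of immune cells and fibroblasts in the S100a4 values was not tested. In bulk epidermis more cells of a type and more RNA per cell cannot be told apart.

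S100a10 and S100a11 are best known as partners of annexins. S100A10 holds annexin A2 in a tetramer at the plasma membrane, and S100A11 binds annexin A1 and is cross-linked into the cornified envelope. S100a11, the most abundant member, was at 1800 and 1939 FPKM in WT, at 2213, 2930 and 2233 FPKM in KO, at 1613 and 2400 FPKM in KH and at 4529 and 3134 FPKM in DKO. The DKO libraries lay above all others, and the KO libraries above WT, while the KH libraries fell on both sides of WT.

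S100a10 was at 355 and 347 FPKM in WT, at 555, 742 and 422 FPKM in KO, at 431 and 398 FPKM in KH and at 884 and 601 FPKM in DKO. All 7 mutant libraries were above both WT libraries, and KO and DKO overlapped. Neither gene was called in DKO against WT, with log2 fold changes of 1.01 for S100a11 (95% confidence interval 0.08 to 1.94, limma adjusted p = 0.328) and 1.05 for S100a10 (0.31 to 1.80, limma adjusted p = 0.219). DKO replicate 1, the higher of the pair for both genes, also had the larger FPKM sum.

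No annexin was called. Of 8 annexin genes tested in DKO against WT, 0 were called, 0 had an unadjusted p below 0.05, and their median log2 fold change was 0.11. Anxa2 stood at 1055 and 1235 FPKM in WT and at 1284 and 910 FPKM in DKO (log2 fold change -0.08, limma adjusted p = 0.932). The ratio of S100a10 to Anxa2, which does not depend on the FPKM sum of a library, was 0.337 and 0.281 for the WT libraries. It was 0.553, 0.602 and 0.351 for the KO libraries, 0.432 and 0.463 for KH and 0.689 and 0.661 for DKO. The DKO ratios thus lay close together and above the other 7 libraries, and every mutant library lay above both WT libraries. This ratio was formed after the values were seen and has no test.

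S100a1 and S100a13 lie head to head on opposite strands of chromosome 3, with 42 bases between them. S100A1 is a calcium regulator of muscle and nerve, and S100A13 takes part in the release of FGF1 and IL-1 alpha from cells without a signal peptide. S100a13 was at 6.86 and 4.87 FPKM in WT, at 14.9, 16 and 7.85 FPKM in KO, at 11.3 and 8.03 FPKM in KH and at 14 and 13.3 FPKM in DKO. Every mutant library lay above both WT libraries, and DKO fell within the KO range.

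S100a13 differed from S100a8 and S100a9 in this respect, since its mean was 2.2 times the WT mean in KO and 2.32 times in DKO. Its log2 fold change was 0.98 in KO (SE 0.31, limma adjusted p = 0.853), 0.64 in KH (SE 0.34, limma adjusted p = 0.98) and 1.10 in DKO (SE 0.34, limma adjusted p = 0.216), none called. In DKO against KO it was 0.13 (95% confidence interval -0.58 to 0.84). S100a1 was at 3.57 and 2.27 FPKM in WT, at 3.98, 4.93 and 3.37 FPKM in KO, at 4.71 and 4.55 FPKM in KH and at 7.61 and 5.37 FPKM in DKO, with DKO above all others and a log2 fold change against WT of 0.94 (SE 0.27, limma adjusted p = 0.185).

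S100a14 and S100a16 are S100 genes of epithelia and did not separate DKO from WT. S100a14 was at 1294 and 1094 FPKM in WT, at 738, 1455 and 975 FPKM in KO, at 723 and 913 FPKM in KH and at 1101 and 729 FPKM in DKO (log2 fold change -0.41, 95% confidence interval -1.31 to 0.49). S100a16 was at 729 and 665 FPKM in WT, at 548, 954 and 734 FPKM in KO, at 572 and 626 FPKM in KH and at 934 and 639 FPKM in DKO (log2 fold change 0.15, 95% confidence interval -0.62 to 0.92). Both intervals include 0. They were the only members whose KH libraries both lay below both WT libraries, 2 of 10, where 16.6% of all genes did so.

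**Figure D2:**
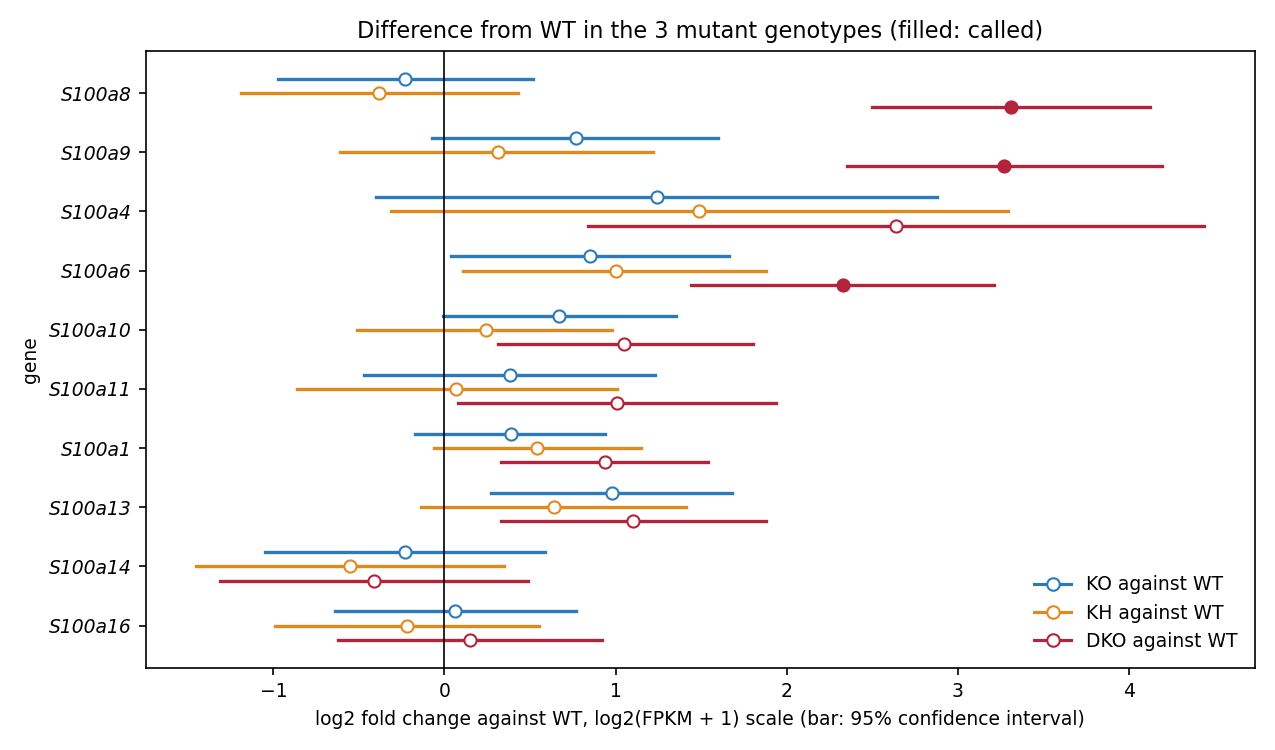
Log2 fold change against WT on the log2(FPKM + 1) scale (horizontal axis) of the 10 S100 genes (vertical axis) in KO, KH and DKO. Bars are 95% confidence intervals and filled points were called. The DKO intervals of S100a8, S100a9 and S100a6 start at 2.50, 2.35 and 1.44, and no KO or KH difference was called.

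Loss of Esrp1 alone, or with 1 Esrp2 allele, gave no call among the members. In KO against WT, 0 of 10 were called, as were 0.0296% of all genes, and 2 (S100a6 and S100a13) had an unadjusted p below 0.05, as did 4.53% of all genes. The 3 KO libraries lay above both WT libraries in 5 members (S100a4, S100a9, S100a10, S100a11 and S100a13), beside 12.6% of all genes, and the median log2 fold change was 0.53, beside 0.00. In KH against WT, 0 of 10 were called, beside 0.0296% of all genes, and 1 (S100a6) had an unadjusted p below 0.05, beside 3.72%. The KH libraries lay above WT in 4 members (S100a1, S100a6, S100a10 and S100a13), where 15.3% of all genes did, and the median log2 fold change was 0.27.

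Between the Esrp1-null genotypes that kept Esrp2, KH and KO, 0 of the 10 members were called, as were 0% of all genes. No member had an unadjusted p below 0.05 there, where 1.09% of all genes (185) did, and the median was -0.29. In DKO against KO both DKO libraries lay above all 3 KO libraries in 6 members (S100a1, S100a4, S100a6, S100a8, S100a9 and S100a11), beside 11.2% of all genes. In DKO against KH they lay above both KH libraries in 8 members, all but S100a4 and S100a14, beside 14.3% of all genes.

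By position the members fell in 2 groups on chromosome 3 (mm10). S100a1, S100a13, S100a14, S100a16, S100a4, S100a6, S100a8 and S100a9 lie in this order within 184.7 kb (90511034 to 90695721), and S100a11 and S100a10 lie 2825 kb farther along (93520488 to 93564643). The 4 members with the largest log2 fold changes, S100a4, S100a6, S100a8 and S100a9, were the last 4 of the first group. S100a14 and S100a16, with the smallest, lie between them and S100a1.

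Other S100 genes within that stretch were low. S100a3, which sits beside S100a4, was between 0.756 and 3.67 FPKM, with a log2 fold change of 0.27 in DKO against WT (SE 0.41, limma adjusted p = 0.795). S100a7a, between S100a6 and S100a8, was at 0.137 and 0.472 FPKM in DKO and at 0.0562 and 0.033 FPKM in WT (log2 fold change 0.31, limma adjusted p = 0.32), and S100a5 was listed at 0 in every library. Of the 8 other single S100 genes listed, 5 were tested and 0 were called.

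Neighbouring genes of other families did not pass the test either. Of 7 tested within 100 kb or inside the cluster, 0 were called in DKO against WT. Pglyrp4, a peptidoglycan recognition protein, was at 27.5 and 22.9 FPKM in WT and at 33.7 and 26.5 FPKM in DKO. GM5849, past S100a9, had the largest log2 fold change of these, 3.60 (SE 1.08, limma adjusted p = 0.208), with 6.88 and 1.89 FPKM in WT, 24.7 FPKM in KH replicate 2 and 105 and 30.7 FPKM in DKO.

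**Figure D3:**
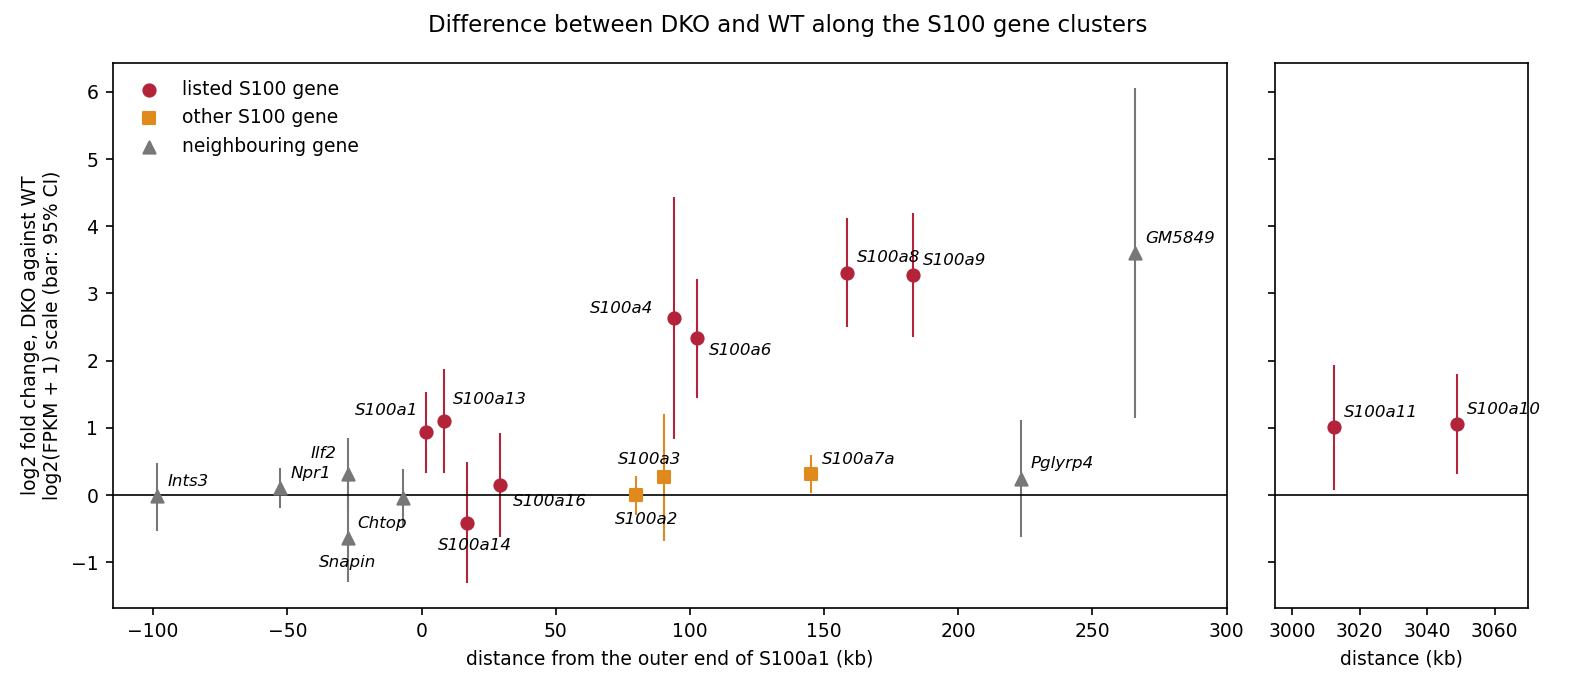
Log2 fold change of DKO against WT on the log2(FPKM + 1) scale (vertical axis) by distance in kb from the outer end of S100a1 (horizontal axis, in 2 panels). Bars are 95% confidence intervals, circles are the 10 listed S100 genes, squares other S100 genes and triangles neighbours. S100a4, S100a6, S100a8 and S100a9 lie between 2.33 and 3.31, while S100a3, just before S100a4, and S100a7a, between S100a6 and S100a8, lie at 0.27 and 0.31.

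The fused S100 genes join an S100 domain to long repeats and encode structural proteins of the cornified layer and the hair. Of 7 tested, 3 were called in DKO against WT, all higher, and their median log2 fold change was -0.09. Rptn (repetin) was at 13.4 and 14.8 FPKM in WT and at 321 and 288 FPKM in DKO (log2 fold change 4.34, SE 0.40, limma adjusted p = 0.00175). Crnn (cornulin) had a log2 fold change of 2.83 (limma adjusted p = 0.0234) and Tchhl1 one of 2.37 (limma adjusted p = 0.00212). The other 4 had log2 fold changes below 0, from -1.76 for Flg2 to -0.09 for Flg, the gene of filaggrin.

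Among 9 other binding partners tested, 2 were called, both higher in DKO. Il1b, the gene of the cytokine IL-1 beta, was at 0.495 and 0.203 FPKM in WT and at 6.99 and 4.73 FPKM in DKO (log2 fold change 2.33, SE 0.23, limma adjusted p = 0.00224). Fgf1, which S100A13 helps to release, was at 0.683 and 0.624 FPKM in WT and at 5.04 and 3.55 FPKM in DKO (log2 fold change 1.67, SE 0.24, limma adjusted p = 0.0186). Il1a, also released with S100A13, was at 40.1 and 41.9 FPKM in WT and at 39.6 and 20.2 FPKM in DKO, and Cacybp, the partner of S100A6, was at 36 and 38.4 FPKM in WT and at 41 and 43.2 FPKM in DKO.

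**Figure D4:**
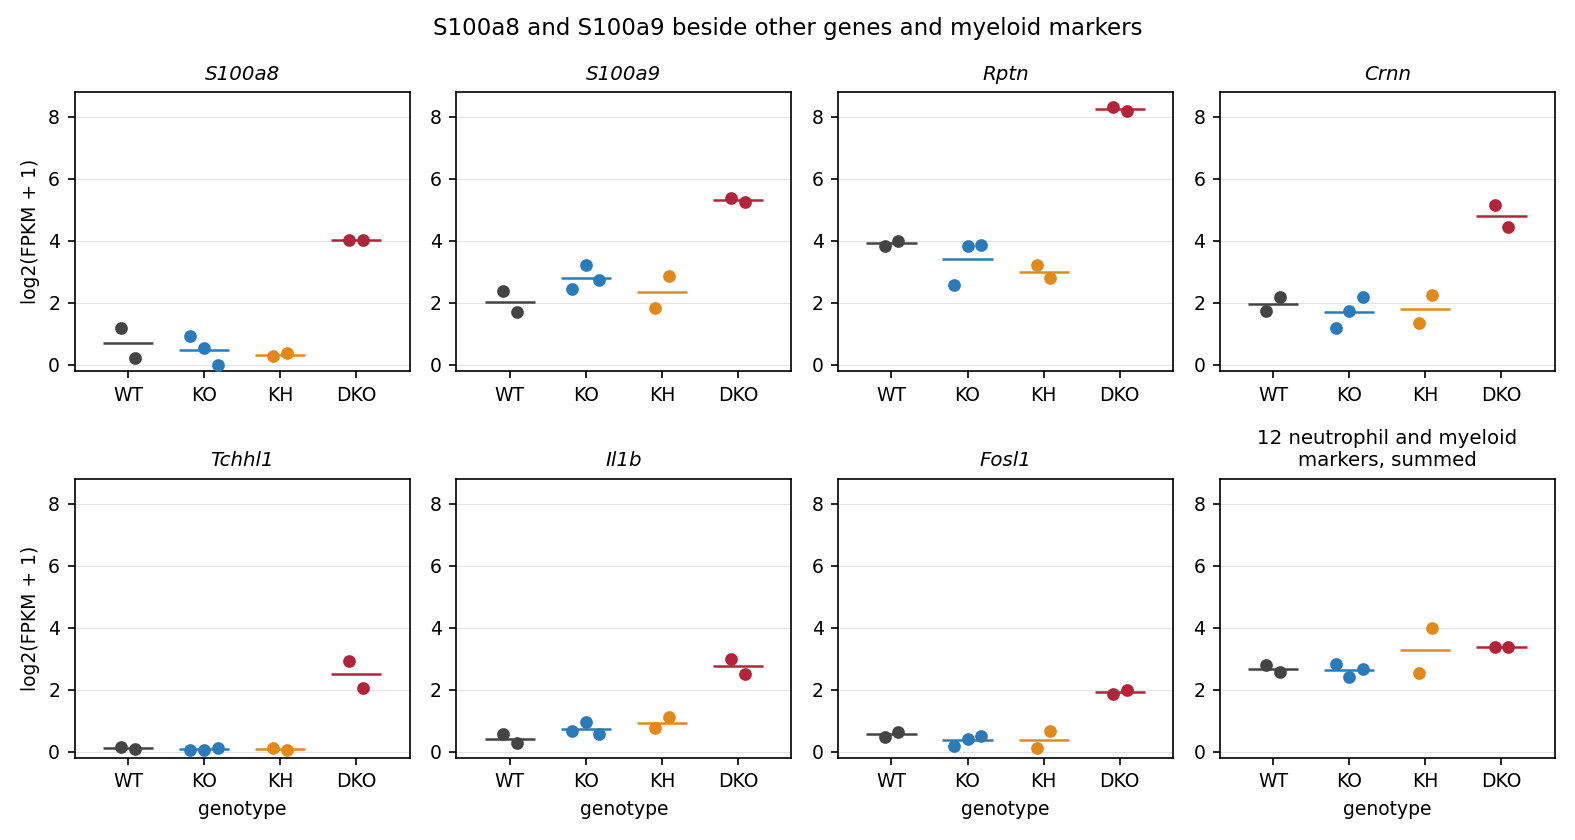
Levels as log2(FPKM + 1) (vertical axis, the same in every panel) of S100a8 and S100a9, of 5 genes called in DKO against WT from the lists of fused S100 genes, binding partners and regulators, and of the sum of 12 neutrophil and myeloid markers, by genotype (horizontal axis). Points are libraries and lines are means. The DKO libraries sit above the other 7 for each single gene, and the marker sum is highest in a KH library (14.9 FPKM), with both DKO libraries above WT and KO.

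The genes whose pattern over the 9 libraries was most like each of the 4 strongest members were sought among 12187 genes by Pearson r on log2(FPKM + 1). For S100a8 they were Ccl20, a chemokine of the epidermis (r = 0.981), Lce3b, a late cornified envelope gene (0.973), and Nuak1, a kinase (0.972). Ccl20 averaged 0.514 FPKM in WT and 43.4 FPKM in DKO, and Lce3b was listed at 0 in all 7 other libraries and averaged 4.98 FPKM in DKO. For S100a9 they were Akr1c18 (0.986), Zfp385a (0.978) and Figf, the gene of VEGF-D (0.972). For S100a6 they were Mybbp1a (0.973), Nop56 (0.967) and Osbpl7 (0.963), of which Nop56 serves ribosome assembly in the nucleolus, and for S100a4 they were Dmpk (0.976), Sap25 (0.970) and Stab1 (0.965). These values describe 9 libraries that share genotype and preparation.

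Among the members themselves, the 45 pairs had a median r of 0.69 over the 9 libraries, from -0.27 to 0.92. The pair with r = 0.92 was S100a8 and S100a9. Without the DKO libraries the median over 7 libraries was 0.43, and the r of S100a8 with S100a9 was 0.10, from S100a8 values of at most 1.3 FPKM, near the floor of the scale. S100a14 with S100a16 had r = 0.82 with DKO and 0.91 without, and S100a1 with its head-to-head neighbour S100a13 had 0.77 and 0.79. In KO, KH and DKO alike, the library with the largest FPKM sum was also the highest in 5 members, S100a4, S100a9, S100a11, S100a14 and S100a16. These libraries, KO replicate 2, KH replicate 2 and DKO replicate 1, share the number 2 in their column names, and the labels do not state what that number marks.

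Libraries also differed in the weight of short transcripts, and every member has a median transcript length below 1000 bases. The median deviation of genes under 1000 bases from their mean over the 9 libraries, less that of longer genes, was 0.18 on the log2 scale in KO replicate 2 and 0.16 in DKO replicate 1. It was -0.14 in WT replicate 2 and between -0.09 and -0.01 in the other 6 libraries. KO replicate 2 and DKO replicate 1 were the highest libraries of their genotypes for 8 of the members, all but S100a6 and S100a8. With a correction for transcript length S100a6, S100a8 and S100a9 were called in DKO against WT, and the part of transcript length in the spread within genotypes was not tested.

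Markers of the epidermal layers were read in the same libraries. Basal keratinocyte markers (6 genes) summed to between 5265 and 5336 FPKM in WT and 6408 and 7381 FPKM in DKO, and spinous markers (4 genes) to between 45242 and 60336 FPKM in WT and 25111 and 36322 FPKM in DKO. None of these 10 genes was called in DKO against WT. Granular and cornified markers (4 genes) summed to between 7649 and 9842 FPKM in WT and 5277 and 10326 FPKM in DKO, again with 0 called. Melanocyte markers (5 genes) summed to between 42.4 and 46.6 FPKM in WT and 93.1 and 204 FPKM in DKO with 0 called, and endothelial and muscle markers were below 1 FPKM throughout. The part of cell layers and of other cell types in the S100 values was not tested.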

How the data were processed

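RNA from E18.5 mouse epidermis was sequenced from stranded mRNA libraries in 4 genotypes. Per the labels, the authors used TopHat 1.4.1 for alignment to mm10 and Cuffdiff 2.2.0, and they deposited FPKM per gene in 1 column per library, without pooling. How Cuffdiff scaled libraries against each other is not given in the sources used here. With no read counts in the FPKM table, counting error was not estimated. The genotype means in the table, made by the authors, were not used. Libraries were assigned to genotypes by their labels, and the study's methods describe each as made from the skin of a single embryo.

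Genes averaging above 0.1 FPKM in at least 1 genotype were fitted on log2(FPKM + 1) by limma 3.58.1 (R 4.3.3). The model had 1 mean per genotype, eBayes used a trend with intensity, and there were 6 comparisons and 5 residual degrees of freedom. The fit was tested on simulated data. The members, all gene lists and the cell markers were chosen with earlier results of these data known. Genes named from a list were those called or with the largest differences. Other genes named, and the ratios of S100a8 to S100a9 and of S100a10 to Anxa2, were picked once their values had been seen. The 21 alternatives covered the pseudocount, filters, scaling, weights, transcript length, the replicate block, the genotypes fitted and each library left out, and 3 more on sex and 1 on the numbers in the column names were added after the values were seen. Median lengths came from GENCODE M21 and matched 95.1% of genes. Promoters came from RefSeq (GRCm38.p6). No protein sequences were used. Python 3.11.15, pandas 2.3.3, numpy 2.4.6 and matplotlib 3.10.9 made the tables and plots.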

Additional observations from a re-analysis of the deposited data

How the results depend on the processing

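All 1000 planned recomputations of a member's log2 fold change, over 5 comparisons, kept direction and call except 23 that reversed, 31 that lost a call and 2 that gained one. S100a8, S100a9, S100a6, S100a4, S100a10, S100a11, S100a1 and S100a13 stayed higher in DKO than in WT under every alternative run, and the range of S100a8 was 2.83 to 4.63 and of S100a9 2.08 to 3.61. The number of members called in DKO against WT was 0 to 3 with each library left out, 1 with sex as a term and 0 in male libraries only. In DKO against KO it was 1 to 2 with each library left out, 1 with no filter, 1 with the replicate block and 0 with sex as a term. In DKO against KH it was 1 to 2 with each library left out, 1 with a pseudocount of 0.1, with no filter, with only the 2 genotypes compared and with the replicate block, and 0 in male libraries only. The cause was not tested, though leaving out libraries and adding terms leave fewer degrees of freedom.

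The number of all genes called in DKO against WT (123) was 400 with only the 2 genotypes compared, 556 with arrayWeights, 67 with the replicate block, 55 with sex as a term, 11 in male libraries only and 54 to 152 with each library left out. In KO against WT (5) it was 3 with a pseudocount of 0.1, 1 for genes averaging at least 1 FPKM, 1 with eBayes without a trend, 10 with arrayWeights, 0 with the replicate block, 3 with length correction, 3 with sex as a term and 0 to 17 with each library left out. In KH against WT (5) it was 2 with a pseudocount of 0.1, 1 for genes averaging at least 1 FPKM, 1 with only the 2 genotypes compared, 1 with eBayes without a trend, 0 with the replicate block, 2 with length correction, 11 with sex as a term, 10 in male libraries only and 1 to 33 with each library left out. In DKO against KO (108) it was 52 with the replicate block, 18 with sex as a term and 62 to 130 with each library left out. In DKO against KH (72) it was 33 with only the 2 genotypes compared, 43 with the replicate block, 2 in male libraries only and 43 to 102 with each library left out. In KH against KO (0) it was 1 with a pseudocount of 0.1, 5 with only the 2 genotypes compared, 1 each with TPM, median ratio scaling and quantile normalization, and 0 to 21 with each library left out.

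No member was called in any version of KO against WT, KH against WT or KH against KO, and no member changed sign in a comparison in which it had been called. In KO against WT, S100a8 was at 0.02 with the replicate block, 0.26 with sex as a term, 0.26 in female libraries only and -0.71 to 0.26 with each library left out, S100a14 at -0.49 to 0.00 and S100a16 at -0.13 to 0.27 with each library left out, and S100a16 at -0.03 with quantile normalization. In KH against WT, with each library left out, S100a8 was at -0.86 to 0.10, S100a9 at -0.22 to 0.83 and S100a11 at -0.21 to 0.36, and S100a9 was at -0.03 with sex as a term and -0.03 in male libraries only. In DKO against WT, S100a16 was at -0.12 to 0.42 with each library left out. In DKO against KO, with each library left out, S100a13 was at -0.17 to 0.30, S100a14 at -0.48 to 0.12 and S100a16 at -0.19 to 0.36, while S100a13 was at -0.17 with the replicate block and -0.29 with sex as a term and S100a16 at -0.04 with sex as a term. In DKO against KH, with each library left out, S100a14 was at -0.16 to 0.44 and S100a4 at -0.17 to 2.48, and S100a14 was at -0.05 with TPM and -0.07 with quantile normalization.

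Of the genes called in DKO against WT, 81 of 123 were higher in DKO, against 96 of 178 with TPM, 71 of 132 with a pseudocount of 0.1, 80 of 104 with no filter, 250 of 556 with arrayWeights, 141 of 400 with only the 2 genotypes compared and 2 of 11 in male libraries only, so that most were lower in the last 3 of these. Higher genes in DKO against KO were 88 of 108, and 103 of 152 with TPM, 78 of 112 with a pseudocount of 0.1 and 58 of 84 without KO replicate 1. Against KH they were 65 of 72, and 71 of 97 with TPM, where the median of all genes moved to -0.11, 54 of 72 with a pseudocount of 0.1, 25 of 33 with only the 2 genotypes compared and 40 of 102 without KH replicate 1, where most were lower. By the replicate numbers of the titles, same-numbered libraries of different genotypes correlated between -0.567 and 0.468 in their deviations from the genotype means. In a genotype of 2 libraries these deviations mirror each other, so the check cannot tell whether the numbers mark pairs. The main fit used no pairs. With the replicate block, in which KO replicate 3 stands alone and 3 residual degrees of freedom remain, S100a9 was not called in any comparison (adjusted p = 0.051, 0.201 and 0.102 against WT, KO and KH by limma). The column names number some libraries otherwise (DKO replicate 1 as 2, DKO replicate 2 as 3, KO replicate 3 as 4 and WT replicate 2 as 5). By these numbers the 3 libraries numbered 2 correlated with each other at 0.335, 0.543 and 0.435, and KO and KH of number 1 at 0.468. For number 1, WT and KH correlated at -0.23 and WT and KO at 0.0387. The same limit holds here, so whether these numbers mark pairs was not settled. A replicate block by these numbers, added after the values were seen, leaves 3 libraries alone and 1 residual degree of freedom. By limma it called 0 genes and 0 members in each comparison (genes at an unadjusted p under 0.05 numbered 1637 for DKO against WT, 866 against KO and 980 against KH, 2088 for KO and 1466 for KH against WT, and 409 for KH against KO). In DKO against WT its log2 fold change was 2.96 for S100a8, 2.08 for S100a9, 1.90 for S100a6, 0.63 for S100a4 and -0.11 for S100a16. It also reversed S100a16 in KO against WT (-0.24), S100a9 and S100a11 in KH against WT (-0.49 and -0.12) and S100a13 in DKO against KO (-0.05). Where leaving out a library left 1 in its genotype, the spread of that genotype was taken from the rest. Depth was not weighed, since FPKM without counts does not carry it.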
